A study of Mus musculus with 9 samples.

Results

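The Akr1c cluster of the mouse is a run of aldo-keto reductase genes on chromosome 13, described here in LSK cells, bone marrow cells sorted as negative for the lineage markers Mac1, Gr1, B220, CD3e and Ter119 and positive for Sca1 and cKit, a fraction that contains blood stem and progenitor cells. The 9 genes Akr1c12, Akr1c13, Akr1c6, Akr1c14, Akr1c18, Akr1c19, Akr1c20, Akr1c21 and Akr1e1 were taken by symbol from a table of 37882 genes. They were chosen from measured values, since Akr1c12 had stood out in K9M against rtTA and the others are its family neighbours. Differences of the members in that comparison are therefore given as a description only. RNA was sequenced from 9 mice, 3 in each of 3 groups. The K9M group had a transgene at Col1a1 for histone H3.3 with methionine in place of lysine 9, the K36M group one at Col1a1 with methionine in place of lysine 36, and rtTA mice had no histone transgene. All mice carried the doxycycline-dependent activator rtTA in Rosa26, were on a mixed B6/129 background, were 6 to 8 weeks old and drank water with 2 mg/ml doxycycline and 10 mg/ml sucrose. A transgene for unmutated H3.3 was not among the groups, so an effect of the mutation and one of carrying an H3.3 transgene cannot be told apart. The transgene sites lie on other chromosomes than the cluster, Col1a1 on 11 and Rosa26 on 6. Whether B6 and 129 alleles at the cluster differed between the groups was not tested.

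Aldo-keto reductases are soluble enzymes that use NADPH or NADH to turn aldehydes and ketones into alcohols, or to run the reverse reaction. The mouse Akr1c enzymes are best known for the metabolism of steroid hormones and prostaglandins. Many of their genes are active mainly in liver, gonads, gut and other epithelial tissues, but Akr1c12 and Akr1c13 had signal in rtTA LSK cells too. Akr1c18 encodes the 20-alpha-hydroxysteroid dehydrogenase that inactivates progesterone, Akr1c6 a 17-beta-hydroxysteroid dehydrogenase, Akr1c14 a 3-alpha-hydroxysteroid dehydrogenase and Akr1c21 a 3(17)-alpha-hydroxysteroid dehydrogenase. Akr1c12, Akr1c13 and Akr1c19 encode enzymes with alcohol and aldehyde substrates outside the steroids as well, and Akr1e1 encodes a reductase of 1,5-anhydrofructose.

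The cluster spans chr13:4049011-4609174 on mm10 (GENCODE M21), 560 kb, with 5 genes on the plus strand and 4 on the minus strand. In chromosome order they are Akr1c14, Akr1c18, Akr1c13, Akr1c19, Akr1c12, Akr1c6, Akr1c20, Akr1c21 and Akr1e1. Akr1c13 (ENSMUSG00000021213, chr13:4191150-4205596, plus strand) and Akr1c12 (ENSMUSG00000021211, chr13:4268176-4279433, minus strand) are separated by 62.6 kb. Their promoter windows are shown because these neighbours differ in level and in response. Yet their start regions are more alike than those of any other pair among the 8 members with a window.

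In RefSeq on GRCm38.p6, windows of 250 bases before to 50 bases after the start matched 8 of the 9 genes. Akr1c20 had none, so its start region was not compared. The Akr1c12 window lies at chr13:4279350-4279649 on the minus strand and that of Akr1c13 at chr13:4190937-4191236 on the plus strand. Both are printed from 5′ to 3′, and capitals mark the bases that differ between them or that have no partner in their alignment.
Akr1c12: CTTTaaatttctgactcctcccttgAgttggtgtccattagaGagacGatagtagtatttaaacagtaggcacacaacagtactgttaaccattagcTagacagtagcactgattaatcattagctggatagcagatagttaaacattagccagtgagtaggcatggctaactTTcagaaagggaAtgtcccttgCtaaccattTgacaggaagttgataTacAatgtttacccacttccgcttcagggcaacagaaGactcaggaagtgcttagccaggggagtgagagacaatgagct
Akr1c13: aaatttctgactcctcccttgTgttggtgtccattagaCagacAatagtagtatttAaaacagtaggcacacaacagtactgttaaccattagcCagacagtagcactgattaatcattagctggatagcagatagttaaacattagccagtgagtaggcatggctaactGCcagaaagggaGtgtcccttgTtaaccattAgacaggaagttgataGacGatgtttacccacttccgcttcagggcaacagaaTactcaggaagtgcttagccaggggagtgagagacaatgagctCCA
Their identity was 93.4%, with 12 mismatches and 8 columns with a gap. The next closest pair, Akr1c13 and Akr1c19, had an identity of 58.8%. The core of the antioxidant response element, TGACNNNGC on either strand, occurred in 1 of the 8 windows (12.5%, that of Akr1c19), against 12.4% of 32851 RefSeq windows of this length. The AP-1 motif TGANTCA occurred in 0 of 8 windows, against 7.81% of the same 32851. Both motifs begin with TGA and can share bases, and a missing match says only that the letters are not in this window.

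The enzymes divided in LSK cells into genes with clear signal and genes at or near 0. RPKM, reads scaled to transcript length and library size, was used for levels. It was compared on the scale log2(RPKM + 0.5), and 12926 genes with at least 1 RPKM in at least 3 libraries were tested. Of the 9 members, 4 were tested and 5 were not, so no count over the tested members speaks for all 9. Over all libraries, Akr1c13 averaged 34.6 RPKM, the 85.3 percentile of tested genes, Akr1c12 8.61 RPKM (50.4), Akr1e1 7.37 RPKM (45.8) and Akr1c18 1.04 RPKM (4.09).

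Of the untested members, Akr1c20 and Akr1c21 were listed at 0 in all 9 libraries. In these, 3 reads would have been worth 0.0320 to 0.102 RPKM for Akr1c20 and 0.0397 to 0.126 RPKM for Akr1c21. A level below that could have been missed in a single library. The same libraries gave signal for genes that all cells use, Tbp among them. Akr1c19 had a highest value of 0.333 RPKM, in K9M 1, and was at 0 in 3 libraries. Its reads, recovered from the RPKM steps, came to 31 in K9M, 14 in K36M and 10 in rtTA over 3 libraries each, and 28 of the 31 came from K9M 1. These counts rest on the shortest length that gave whole reads, 1719.5 bases. At the annotated exon length of 5892 bases, K9M 1 would have about 96 reads. Akr1c14 and Akr1c6 were counted by the same rule. Akr1c14 had 7 reads in K9M, 12 in K36M and 5 in rtTA. Akr1c6 had 8 in K9M, 0 in K36M and 1 in rtTA. These levels were too low for a comparison, and the plot of the members by library shows them on scales of their own.

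**Figure D1:**
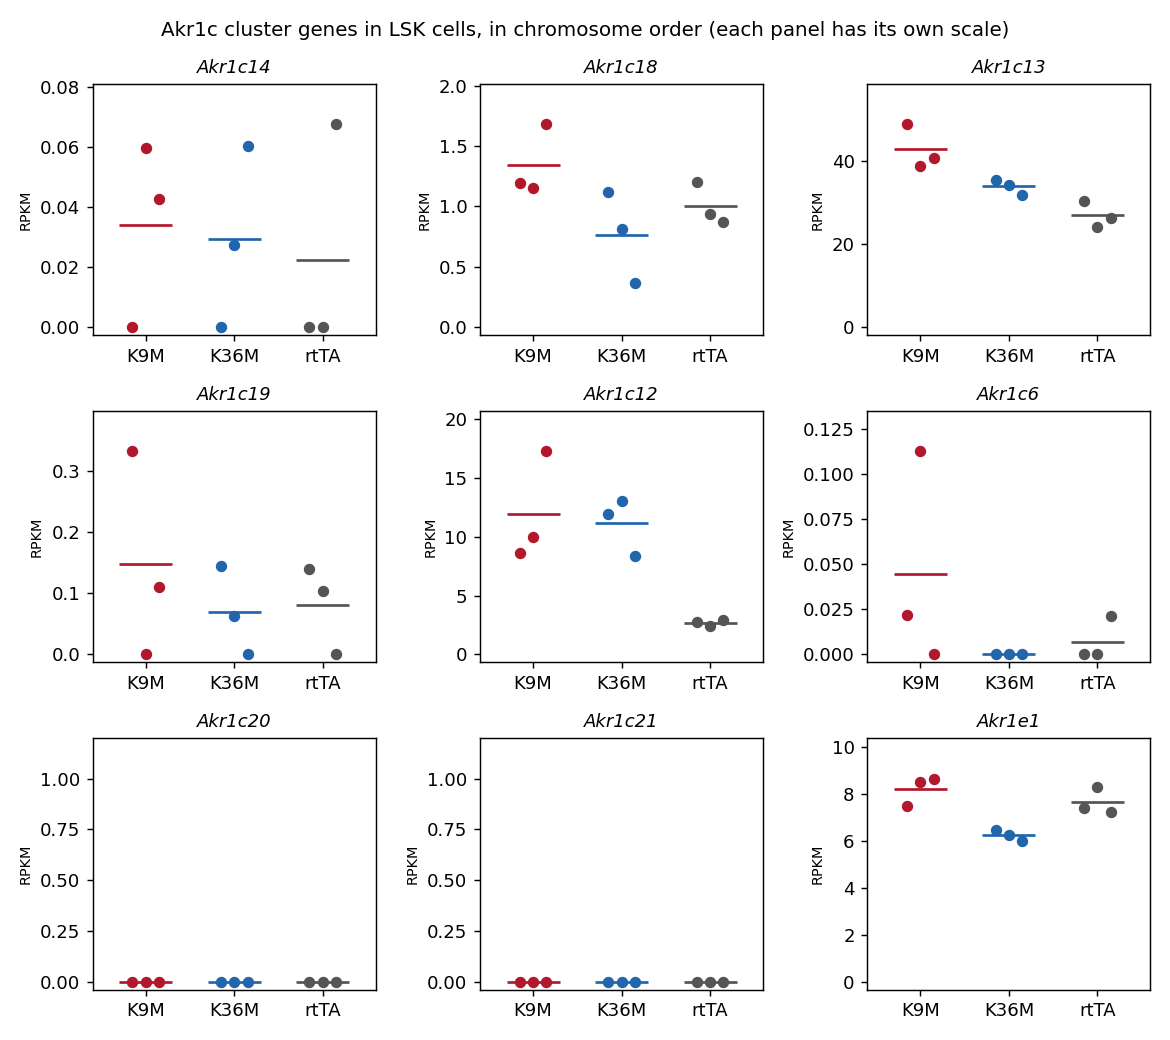
RPKM of the 9 members in each library, in chromosome order, with the line at the group mean and a scale of its own in each panel (K9M, K36M and rtTA from left to right). Akr1c12 lies at 8.40 to 17.3 RPKM in the 6 mutant libraries and at 2.40 to 2.93 RPKM in the 3 rtTA libraries.

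Akr1c12 was higher in both mutant groups than in rtTA. It stood at 8.66, 10.0 and 17.3 RPKM in K9M 1 to 3, at 11.95, 13.1 and 8.40 RPKM in K36M 1 to 3, and at 2.78, 2.40 and 2.93 RPKM in rtTA 1 to 3. About 346 to 534 reads stood behind these values in K9M, 533 to 608 in K36M and 58 to 102 in rtTA. Every mutant library lay above every rtTA library, and K9M 3 was the highest of the 9. The mean of Akr1c12 was 11.99 ± 4.63 RPKM in K9M and 2.70 ± 0.273 RPKM in rtTA (SD, n = 3 each), 4.44-fold higher in K9M, with a log2 difference of 1.91 (SE 0.25). It averaged 11.1 ± 2.44 RPKM in K36M, 4.12-fold higher than in rtTA, with a log2 difference of 1.84 (SE 0.25, 95% interval 1.28 to 2.41, limma adjusted p = 0.0164). The rtTA libraries also stand in the comparison behind the choice of members, so this p is not independent of it. Without K36M replicate 1 the adjusted p by limma was 0.0872, without rtTA replicate 2 it was 0.0527 and without rtTA replicate 3 it was 0.0566, which ended the call, while the difference stayed between 1.77 and 1.89. K36M and K9M overlapped, with a difference of -0.06 (95% interval -0.63 to 0.50, limma adjusted p = 0.921).

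Each comparison has its own background. An unadjusted limma p under 0.05, in either direction, was reached by 7.11% of tested genes in K9M against rtTA, by 19.1% in K36M against rtTA and by 18.8% in K36M against K9M, and counts at that threshold are to be read against these shares. In K9M against rtTA, 0.0928% of tested genes were called higher and 7.09% had groups that did not overlap with K9M higher. Of the 4 tested members, Akr1c12 and Akr1c13 had K9M groups wholly above rtTA, and nothing is read from this count, because the choice used this comparison. In K36M against rtTA, calls of a higher level made up 0.572% of tested genes and calls of a lower level 0.928%. Of the 4 tested members 1 was called, Akr1c12. At an unadjusted limma p under 0.05 there were 3 of 4 (Akr1c12 and Akr1c13 higher, Akr1e1 lower), against 19.1% of all tested genes. This comparison shares the rtTA libraries with the choice of members. With the replicate number as a block over all 9 libraries, the number of genes called in this comparison was 301 instead of 194. The block also covers K9M, whose replicate numbers did not pair with the other groups. Akr1c12 kept its call with it (limma adjusted p = 0.0320). K36M groups lay wholly above rtTA in 11.6% of tested genes and wholly below in 10.6%. Of the 4 members, Akr1c12 and Akr1c13 lay wholly above and Akr1e1 wholly below. In K36M against K9M the shares were 1.02% higher and 1.5% lower. Of the members 0 were called by limma, with 2 of 4 at an unadjusted p under 0.05, against the 18.8% of all tested genes. K36M lay wholly below K9M in 13.4% of tested genes, and Akr1c13, Akr1c18 and Akr1e1 were among them. Nothing is read from this count, since the choice of members used K9M. Without its K9M values Akr1c18 would not have been tested.

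Akr1c13, the member with the highest level, had 48.9, 39.0 and 40.8 RPKM in K9M, 35.6, 34.2 and 32.0 RPKM in K36M and 30.4, 24.1 and 26.3 RPKM in rtTA. The 3 groups did not overlap, with K9M highest and rtTA lowest. Akr1c13 averaged 42.9 ± 5.30 RPKM in K9M (log2 difference to rtTA 0.66, SE 0.12), 33.9 ± 1.83 RPKM in K36M and 26.9 ± 3.20 RPKM in rtTA (SD, n = 3 each). It was 1.59-fold higher in K9M and 1.26-fold higher in K36M than in rtTA. In K36M against rtTA the difference was 0.33 (SE 0.12, 95% interval 0.06 to 0.61, limma adjusted p = 0.187). K36M against K9M gave -0.33 (SE 0.12, 95% interval -0.60 to -0.05, limma adjusted p = 0.185). Neither passed the threshold.

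Akr1c18 lay just over the level at which genes were tested. It reached 1 RPKM in 5 libraries, those of K9M, K36M 1 and rtTA 1. Without K9M, the group with its highest mean, it would not have been tested, so its differences from K9M are a description. It had 1.19, 1.15 and 1.68 RPKM in K9M, 1.12, 0.813 and 0.364 RPKM in K36M and 1.21, 0.937 and 0.867 RPKM in rtTA, behind which stood 22 to 70 reads per library. Both mutant groups overlapped rtTA, and K36M lay wholly below K9M. The log2 difference was 0.29 (SE 0.27) in K9M against rtTA, -0.29 (95% interval -0.90 to 0.32, limma adjusted p = 0.613) in K36M against rtTA and -0.58 (95% interval -1.19 to 0.03, limma adjusted p = 0.295) in K36M against K9M.

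Akr1e1, at the other end of the cluster, had 7.49, 8.51 and 8.66 RPKM in K9M, 6.46, 6.27 and 6.01 RPKM in K36M and 7.41, 8.31 and 7.23 RPKM in rtTA. The K36M values lay below all others and K9M overlapped with rtTA. The difference was 0.10 (SE 0.11) in K9M against rtTA. It was -0.27 (SE 0.11, 95% interval -0.51 to -0.03, limma adjusted p = 0.213) in K36M against rtTA and -0.37 (SE 0.11, 95% interval -0.61 to -0.13, limma adjusted p = 0.105) in K36M against K9M, and neither passed. Akr1c12 and Akr1c13 thus lay above rtTA in both mutants, while Akr1c18 and Akr1e1 had negative differences in K36M against rtTA. Of these K36M differences only that of Akr1c12 passed. Those in K9M are a description, since the choice of members used them.

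Akr1c12 and Akr1c13 are near-identical, which bears on how far their values can be told apart. Their coding sequences, 972 bases each, had an identity of 96.2% with 37 mismatches, against 71.3% to 77.9% between Akr1c12 and the other Akr1c members and 57.4% between Akr1c12 and Akr1e1. Of all 50-base stretches of the Akr1c12 transcript, 28.6% occurred unchanged in that of Akr1c13, and 11.5% of 100-base stretches did. The authors' counting of reads that match several places is not given in the sources used, so the split between both genes is uncertain and their sum was examined as well. No other gene shared a stretch of 50 bases with either.

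The sum of Akr1c12 and Akr1c13 was 57.6, 49.0 and 58.0 RPKM in K9M, 47.6, 47.3 and 40.4 RPKM in K36M and 33.2, 26.5 and 29.2 RPKM in rtTA. It averaged 54.9 ± 5.10 RPKM in K9M, 45.1 ± 4.08 RPKM in K36M and 29.6 ± 3.36 RPKM in rtTA (SD, n = 3 each), 1.85-fold higher in K9M and 1.52-fold higher in K36M. Fitted in place of the 2 genes, a choice made after seeing the data, the sum had a log2 difference of 0.88 in K9M against rtTA, as a description, and of 0.60 in K36M against rtTA (limma adjusted p = 0.0495). Akr1c12 made up 15.05%, 20.5% and 29.8% of the sum in K9M, 25.1%, 27.7% and 20.8% in K36M and 8.37%, 9.04% and 10.0% in rtTA. Its share was above every rtTA value in each mutant library, and the sum was too. Both quantities contain Akr1c12, chosen by its K9M and rtTA values, so they give no separate support. The fit of the sum was not repeated in other settings.

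**Figure D2:**
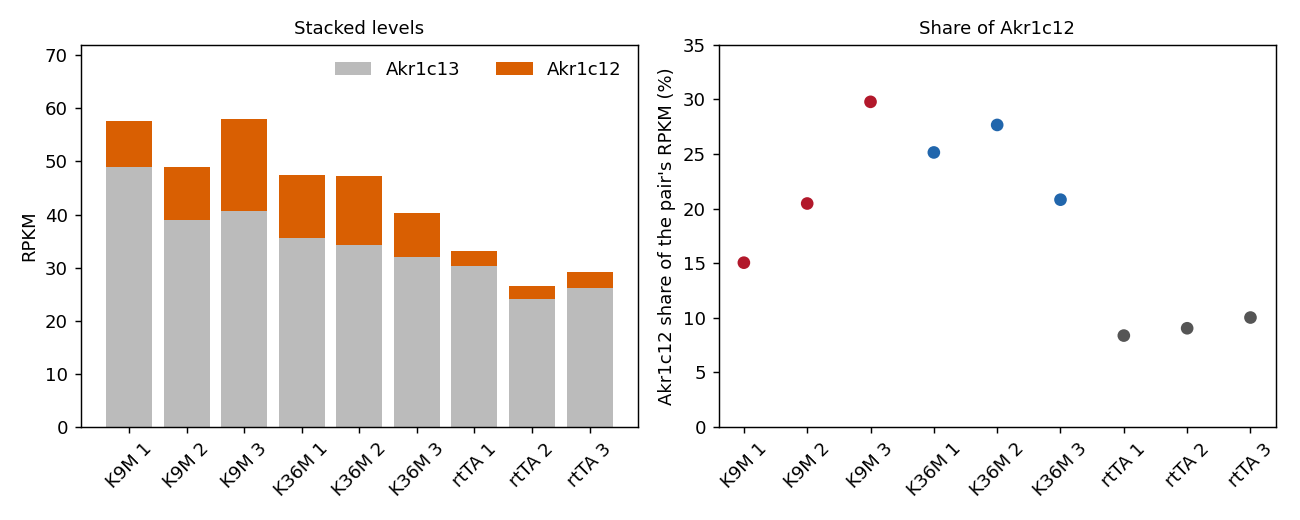
Left, RPKM of Akr1c13 (grey) and Akr1c12 (orange) stacked for each library, and right, the share of Akr1c12 in their sum, from K9M over K36M to rtTA. The sum lies at 40.4 to 58.0 RPKM in the mutant libraries and at 26.5 to 33.2 RPKM in rtTA.

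The tested genes beside the cluster passed in no comparison. Within 500 kb of its ends or inside it lay 30 annotated genes that are no members, of which 14 were in the table and 6 were tested (Gdi2, BC016423, Asb13, Calm4, CALM5 and Net1), all on the low-coordinate side. Of these 6, 0 were called by limma in each of the 3 comparisons, and at an unadjusted p under 0.05 there were 0 in K9M against rtTA, 1 in K36M against rtTA and 0 in K36M against K9M. Their groups overlapped in every comparison. Net1, a guanine nucleotide exchange factor of RhoA and the nearest of them to the cluster, had 18.7 ± 1.05 RPKM in K36M and 19.8 ± 0.211 RPKM in rtTA (SD, n = 3 each, log2 difference -0.08). Differences from rtTA of these 6 genes ran from -0.23 to 0.06 in K9M and from -0.54 to 0.11 in K36M, against 1.91 and 1.84 of Akr1c12. The plot of members and flanking genes shows these values along the chromosome.

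**Figure D3:**
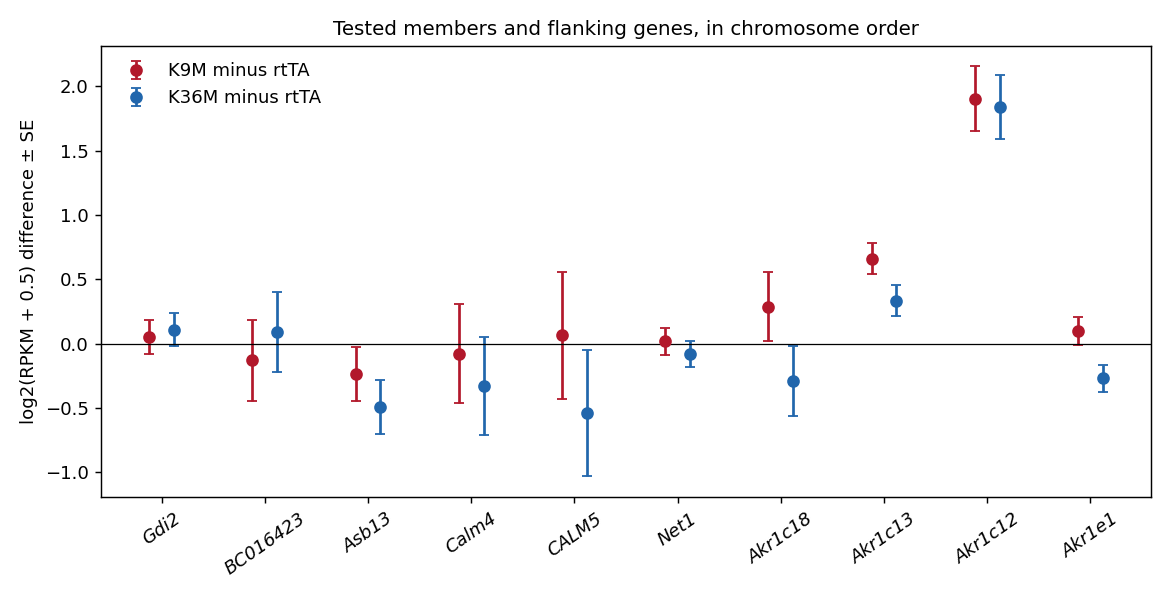
Log2(RPKM + 0.5) difference from rtTA, with its SE, of the tested members and the 6 tested flanking genes in chromosome order, for K9M (red) and K36M (blue). Akr1c12 stands at 1.91 and 1.84, while the flanking genes lie between -0.54 and 0.11.

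The genes most like Akr1c12 across the 9 libraries were found by Pearson's r of log2(RPKM + 0.5), given as a description, since the libraries share groups and depth. The 5 highest were Nme3 (r = 0.973), a nucleoside diphosphate kinase, Stard10 (0.949), a lipid transfer protein, Nlrp1b (0.949), an inflammasome sensor, Gm2308 (0.936), annotated as a processed pseudogene, and Ccnd1 (0.926), which encodes cyclin D1. They lie on chromosomes 17, 7, 11, 7 and 7. Nlrp1b thus shares chromosome 11 with Col1a1, the transgene site of both mutant groups, and a link between these was not tested. Nlrp1b averaged 1.54 ± 0.145 RPKM in K9M, 1.56 ± 0.114 RPKM in K36M and 0.270 ± 0.133 RPKM in rtTA, and Ccnd1 19.8 ± 1.99 RPKM in K9M, 21.02 ± 1.10 RPKM in K36M and 11.4 ± 0.589 RPKM in rtTA (SD, n = 3 each). Both, as Akr1c12, had no mutant library at or below an rtTA library. The choice by correlation with Akr1c12 favours that pattern, so nothing is read from it. Nlrp1b and Gm2308 stayed below 1 RPKM in rtTA and were tested only through mutant libraries. Among the members, r with Akr1c12 was 0.759 for Akr1c13, 0.181 for Akr1c18 and -0.146 for Akr1e1.

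**Figure D4:**
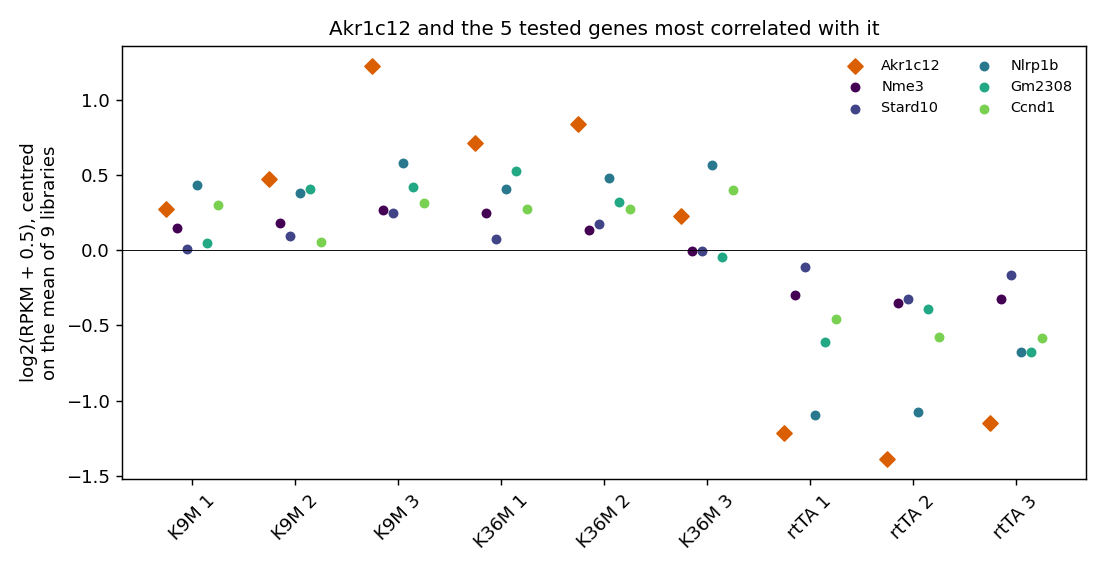
Log2(RPKM + 0.5) of Akr1c12 (diamonds) and the 5 genes most correlated with it, each centred on its mean, in K9M, K36M and rtTA libraries. In each library of rtTA all 6 genes lie below their mean over the 9 libraries, a pattern that the choice by correlation with Akr1c12 favours.

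The wider enzyme family and the pathways the cluster belongs to were read from lists of genes. These lists were chosen with earlier results of these data known, so their calls and counts are a description. Of 11 other aldo-keto reductases, 6 were tested and 0 were called by limma in any of the 3 comparisons. At an unadjusted p under 0.05 there were 0 in K9M against rtTA, 2 in K36M against rtTA and 1 in K36M against K9M. Their median log2 difference was 0.11 in K9M against rtTA and 0.04 in K36M against rtTA, against a median over all tested genes of 0.007 and 0.015. Akr1b10, an aldehyde reductase, had 6.16 ± 0.587 RPKM in K36M and 8.07 ± 1.38 RPKM in rtTA (SD, n = 3 each, limma adjusted p = 0.217). Kcnab2, a potassium channel subunit with the fold of these enzymes, had 19.4 ± 2.86 RPKM in K36M and 15.8 ± 1.25 RPKM in rtTA (limma adjusted p = 0.257).

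NRF2 is a transcription factor of the antioxidant response, and several aldo-keto reductases are among its targets. Of 30 regulators and targets of NRF2, 29 were tested and 0 were called by limma against rtTA in either mutant, with 0 in K9M (7.11% of all tested genes) and 8 in K36M (19.1% of all tested genes) at an unadjusted p under 0.05. The median log2 difference was -0.0002 in K9M and 0.08 in K36M. Gsr, glutathione reductase, was called in K36M against K9M. It had 68.6, 38.0 and 76.6 RPKM in K36M against 23.2, 29.0 and 22.5 RPKM in K9M, a difference of 1.22 (SE 0.26, limma adjusted p = 0.0445), with all K36M libraries above K9M. The call was lost in 10 of 18 other settings, with adjusted p up to 0.160, among them without each K9M library, without K36M replicates 1 or 3 and without rtTA replicates 2 or 3. Tkt, transketolase of the pentose phosphate pathway, had 138 ± 26.6 RPKM in K36M and 96.7 ± 8.38 RPKM in rtTA (limma adjusted p = 0.124), and Gsr 61.1 ± 20.4 RPKM in K36M and 31.3 ± 6.28 RPKM in rtTA (SD, n = 3 each, limma adjusted p = 0.113).

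Of 32 genes of steroid and prostaglandin metabolism, 21 were tested. This list, too, was chosen with earlier results known, so a call of a gene in it gives no independent support. In K9M against rtTA 0 were called by limma, with 5 at an unadjusted p under 0.05, and in K36M against rtTA 1 was called. That gene, Ptgds, encodes prostaglandin D2 synthase. It had 9.16, 9.67 and 8.38 RPKM in K36M, against 1.57, 0.859 and 0.734 RPKM in rtTA. The groups were far apart, with a difference of 2.66 (SE 0.21, limma adjusted p = 0.00163). In K36M against K9M, 2 of the list were called higher and 1 lower. Ptgds had 2.20, 1.54 and 1.93 RPKM in K9M, and the difference was 2.01 (SE 0.21, limma adjusted p = 0.00758). It was called in each of 18 other settings in both comparisons. Hsd17b1, which converts estrone to estradiol, had 3.25, 1.68 and 2.10 RPKM in K36M and 0.260, 0.265 and 0.519 RPKM in K9M. The difference was 1.72 (SE 0.31, limma adjusted p = 0.0302). In rtTA it had 0.587, 1.33 and 0.480 RPKM, and K36M against rtTA gave 1.15 (limma adjusted p = 0.109), not called. Hsd17b1 reached 1 RPKM only in K36M and rtTA 2. It was thus tested only through the group where it was high, and its call is a description. Srd5a3, a polyprenol reductase, had 3.77, 3.86 and 4.12 RPKM in K36M and 6.66, 6.43 and 5.84 RPKM in K9M (difference -0.62, SE 0.13, limma adjusted p = 0.0415). The call of Hsd17b1 was lost in 6 of 18 other settings (adjusted p up to 0.126), among them without each K9M library and without K36M replicates 1 or 3. That of Srd5a3 was lost in 10 of 18 (up to 0.155), among them without each K9M or K36M library and without rtTA replicate 3. Of 6 steroid receptor genes, 2 were tested and 0 were called by limma, with 1 at an unadjusted p under 0.05 in K36M against rtTA. Esr1, the oestrogen receptor, had 1.83 ± 0.464 RPKM in K36M and 2.90 ± 0.234 RPKM in rtTA (limma adjusted p = 0.136), and Nr3c1, the glucocorticoid receptor, 8.22 ± 1.17 RPKM in K36M and 9.06 ± 1.003 RPKM in rtTA (SD, n = 3 each, limma adjusted p = 0.616).

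**Figure D5:**
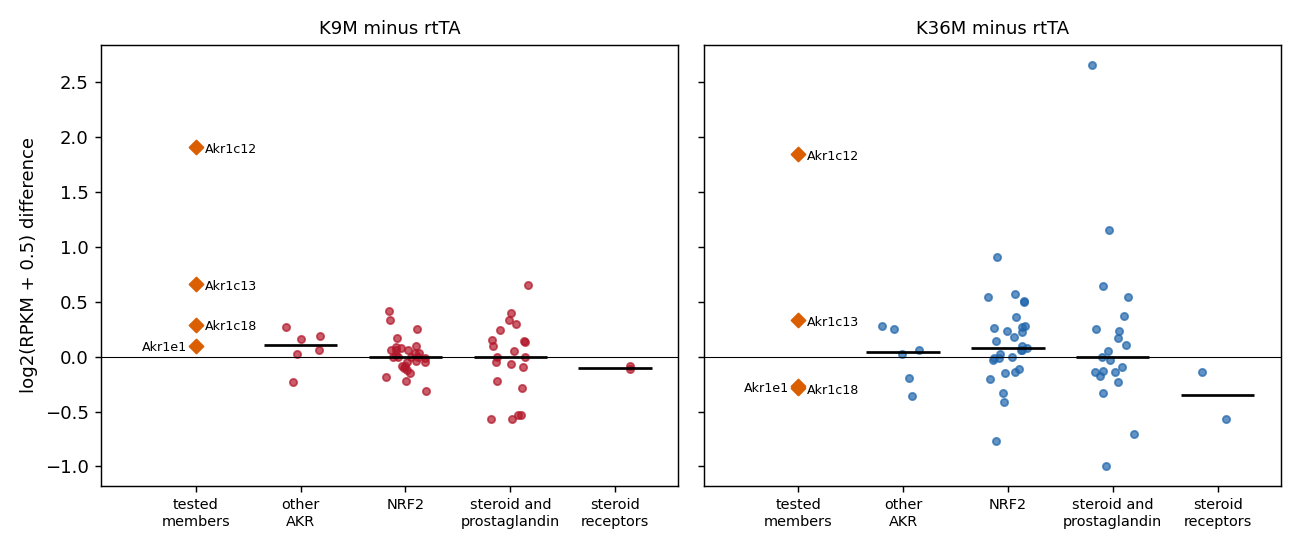
Log2(RPKM + 0.5) difference from rtTA in K9M (left) and K36M (right) of the 4 tested members (diamonds) and of the genes of 4 lists (points, bar at the median). Akr1c12 stands at 1.91 and 1.84, and the highest point of the lists is Ptgds at 2.66 in K36M.

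The libraries held about 15864500 to 48878900 reads in K9M, 36878100 to 50311000 in K36M and 16578700 to 33789100 in rtTA, as estimated from the lowest RPKM steps. In bulk samples, fewer cells of a type and less RNA per cell cannot be told apart. Kit, which encodes cKit, had 81.1 to 92.0 RPKM in K9M, 53.3 to 74.2 RPKM in K36M and 88.1 to 102 RPKM in rtTA, and Ly6a, which encodes Sca1, had 125 to 172 RPKM in K9M, 119 to 192 RPKM in K36M and 120 to 292 RPKM in rtTA. Markers of other cell types also differed between the groups. Their lists were likewise chosen with earlier results of these data known.

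Of 8 B cell markers the summed RPKM was 19.9 to 24.9 in K9M, 31.2 to 36.9 in K36M and 37.6 to 51.1 in rtTA. Of the 6 tested, 0 were called by limma against rtTA, with 5 in K9M (7.11% of all tested genes) and 2 in K36M (19.1%) at an unadjusted p under 0.05. The 2 with the smallest p in K36M against rtTA were Cd79a (log2 difference -0.90, limma adjusted p = 0.179) and Pax5 (-1.03, 0.256). For 8 T and NK cell markers the sum was 134 to 147 in K9M, 112 to 156 in K36M and 102 to 109 in rtTA, with 0 of 3 tested called against rtTA (3 in K9M and 2 in K36M at an unadjusted p under 0.05). Nkg7 gave most of that sum (0.44 in K36M against rtTA, limma adjusted p = 0.141), Il7r was next by p (-0.78, 0.171), and Cd3e, the defining T cell marker, named after its values were seen, was at most 0.168 RPKM in all 9 libraries.

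Most granulocyte markers had negative log2 differences to rtTA in both mutants. Of 10 tested, 2 were positive in K36M (median of the 10 -2.59) and 1 in K9M (median -1.53). In K36M 1 was called lower against rtTA, 6 lay wholly below rtTA, and 9 had an unadjusted p under 0.05 (19.1% of all tested genes). Of these 9, Elane and Mpo were higher and the others lower. In K9M 0 were called, 0 lay wholly below rtTA, and 2 had an unadjusted p under 0.05 (7.11% of all tested genes). Ltf, lactoferrin of the neutrophil granules, had 34.1, 15.8 and 19.3 RPKM in K9M, 6.05, 2.61 and 3.39 RPKM in K36M and 42.6, 27.8 and 271.6 RPKM in rtTA. K36M lay wholly below the other groups, with a log2 difference to rtTA of -4.01 (SE 0.73, limma adjusted p = 0.0370). That call was lost in 9 of 18 other settings (adjusted p up to 0.141), among them without each K36M library, each K9M library or rtTA replicate 1. Elane and Mpo, enzymes of early granules, named after their values were seen, averaged 583 ± 343 and 941 ± 427 RPKM in K36M, against 162 ± 75.5 and 459 ± 158 RPKM in rtTA (SD, n = 3 each), and were not called (limma adjusted p = 0.254 and 0.240). The sum of the 10 was 1082 to 1436 in K9M, 859 to 2450 in K36M and 1236 to 7063 in rtTA, where rtTA 3 was the highest.

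Of 7 tested erythroid markers, 1 was called, higher in K36M against rtTA and in K36M against K9M. Hbb-bt, a beta-globin gene, had 40.1, 23.7 and 5.66 RPKM in K9M, 206.1, 181 and 101.3 RPKM in K36M and 9.80, 12.4 and 14.4 RPKM in rtTA. K36M lay wholly above the other groups, with log2 differences of 3.64 to rtTA (SE 0.59, limma adjusted p = 0.0267) and 3.10 to K9M (SE 0.59, limma adjusted p = 0.0336). Each call was lost in 7 of 18 other settings, with adjusted p up to 0.122 against rtTA (without K36M replicates 1 or 3 or any 1 of the rtTA libraries) and up to 0.129 against K9M (without any 1 of the K36M libraries, K9M replicate 2 or rtTA replicate 3). Hbb-bt made up most of the erythroid sum in K36M, which was 154 to 266 RPKM, against 85.6 to 108 in K9M and 42.5 to 89.1 in rtTA. Hba-a1, an alpha-globin gene, named after its values were seen, had a difference of -0.10 in K36M against rtTA (limma adjusted p = 0.907).

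Of 4 tested mast cell and basophil markers, 0 were called against rtTA (1 in K9M and 2 in K36M at an unadjusted p under 0.05), and 1 was called lower in K36M against K9M. That gene, Cpa3, a mast cell carboxypeptidase, had 23.7, 23.8 and 20.7 RPKM in K36M, against 39.0, 46.9 and 44.1 RPKM in K9M (log2 difference -0.92, SE 0.15, limma adjusted p = 0.0219). The call was lost in 6 of 18 other settings (adjusted p up to 0.108), among them without each K9M library and without K36M replicates 1 or 3. Against rtTA, 0 were called of the LSK, monocyte, megakaryocyte and stroma lists, with 6 of 10, 0 of 7, 2 of 6 and 1 of 1 tested at an unadjusted p under 0.05 in K36M and 1, 3, 0 and 0 in K9M. In K36M against rtTA the smallest p-values of these lists belonged to Kit (-0.54, limma adjusted p = 0.0918) and Hlf (-0.60, 0.135), Csf1r (0.81, 0.370) and Lyz2 (-0.74, 0.376), Pf4 (-1.19, 0.106) and Ppbp (0.94, 0.130), and Pecam1 (0.46, 0.178). Of 8 hepatocyte markers, Alb, Ttr, Serpina1a, Tat and Cyp3a11 were at 0 in all libraries, and the sum was 0.147 to 0.785 RPKM in K9M, 0.799 to 1.07 RPKM in K36M and 0.262 to 1.16 RPKM in rtTA. The part of the markers of other cells in the level of Akr1c12 was not tested.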

How the data were processed

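RNA-seq of LSK cells from 9 mice was analysed. The authors deposited RPKM values for 37882 genes, and CASAVA 1.7, STAR and mm10 were used, per the submitters' processing notes. Counting rule, strand setting and read length: not given in the sources used here. The labels name polyA RNA and a total RNA kit. Groups were taken from the sample titles. The members and lists were chosen with earlier results of these data known. Values were analysed as log2(RPKM + 0.5) for 12926 genes with at least 1 RPKM in at least 3 libraries, a scale that makes differences of low genes smaller. Group means of all 9 libraries were fitted with limma 3.58.1 (R 4.3.3, eBayes with trend), with two-sided tests adjusted over all tested genes by Benjamini-Hochberg and a call at an adjusted p under 0.05. The fit was tested on simulated data. Read depth was estimated from RPKM steps, with 59.8% to 63.0% of values of up to 20 reads whole within 0.05 of a read, so reads are approximate and were used for no test. Floors of 3 reads cover counting error only, and intervals of differences come from limma. Genes were located with GENCODE M21 (mm10) and sequences compared with Biopython 1.88. Named genes were the 9 members, flanking genes, the 5 genes most correlated with Akr1c12, up to 4 called members of each list or else the 2 with the smallest p in K36M against rtTA, and Kit and Ly6a, and a few other marker genes are marked as named after their values were seen. The flanking genes are named although their groups overlap. Same-numbered K36M and rtTA libraries deviated together (correlations 0.414, 0.369 and 0.377), which comes from the data and not from the labels. Each replicate is a separate mouse per the labels' design text. Alternatives were other pseudocounts, filters, scalings, a replicate block, library weights, fits to only the groups compared and leaving out each library. The sum of Akr1c12 and Akr1c13 was added after seeing the data.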

Additional observations from a re-analysis of the deposited data

How the results depend on the processing

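The number of genes called depended on the setting. In K9M against rtTA it was 15, and it was 4 with no filter, 8 with quantile normalization, 62 with library weights and 6 (without K9M replicate 2) to 36 (without rtTA replicate 1) when single libraries were left out. In K36M against rtTA it was 194, and it was 76 with no filter, 25 with only the 2 groups compared, 301 with the replicate block and 10 (without K36M replicate 1) to 402 (without K36M replicate 2) when single libraries were left out. In K36M against K9M it was 326, and it was 118 with no filter, 595 with the replicate block, 589 with library weights and 15 (without K36M replicate 3) to 509 (without K36M replicate 2) when single libraries were left out. Replicate numbers did not pair K9M with the other groups. The cause of these shifts was not tested, beyond more genes being tested with no filter and fewer samples being fitted in the fits with libraries left out.

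Akr1c12 in K36M against rtTA kept its call in 15 of 18 alternatives, with differences of 1.695 to 2.03 and limma adjusted p of 0.00774 to 0.0872. The sum of Akr1c12 and Akr1c13, another quantity, was fitted apart and had a difference of 0.60. As a description, its difference in K9M against rtTA lay between 1.62 and 2.10, and that of the sum was 0.88. Akr1c13, Akr1c18 and Akr1e1 were called in 0 of 18 alternatives in both K36M comparisons, and each kept its sign. The K36M against K9M difference of Akr1c12 was positive in 2 of 18 alternatives, from -0.26 to 0.22, and never called. Depth limits Akr1c18 and the untested members most.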
